A study of Mus musculus with 2 samples.

Results

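The Schlafen genes Slfn1, Slfn2, Slfn4, Slfn5 and Slfn8 were followed across the immune cells of 2 mouse mammary tumours. All 5 members were among the 31053 genes of the deposited tables. They were chosen with measured values in view, because Slfn4 was already known to be higher in monocytes and macrophages of the PyMT-N tumour, where most interferon genes were lower. That difference is therefore a description here.

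One tumour grew from PyMT-N cells and the other from PyMT-M cells, 2 lines of a mammary tumour model driven by the polyoma middle T oncogene. Cells of each line were placed in the mammary gland of mice, and the tumours were collected 4 weeks later at a diameter between 0.7 and 1 cm. Living cells that carry CD45, found on the surface of nearly all white blood cells, were sorted out, and their transcripts were read from the 5′ end with a droplet method that counts unique molecular identifiers (UMIs). The labels do not explain the letters N and M, and the strain, sex and age of the hosts and the number of tumours pooled are not given in the sources used here. Neither library carried a further treatment in the labels. Each line gave 1 library, so there is no test of any difference and no replicate check. All intervals are 95% intervals of counting error only.

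Cells were classed by the UMIs of marker genes, and each class name below stands for cells that are like that type by those markers. After filters the PyMT-N library held 4792 cells and 13941797 UMIs and the PyMT-M library 6910 cells and 39311716 UMIs. Neutrophils formed 65.5% of PyMT-N cells (3138 cells) and 0.608% of PyMT-M cells (42 cells), whereas macrophages formed 11.1% (532 cells) and 68.4% (4729 cells). Monocytes numbered 198 in PyMT-N and 120 in PyMT-M, and cells with markers of both monocytes and macrophages, called intermediate, numbered 166 and 241. T cells numbered 168 and 636, NK cells 32 and 382, B cells 56 and 47 and dendritic cells 22 and 63. In each class and tumour the 10 leading genes held at least 3 markers of that class and 0 of another. For intermediate cells the markers of monocytes and of macrophages both counted as their own. The classes were set by these same markers, so this is not a separate check of the names. Unclassed cells (352 and 208) and cells with markers of several classes (109 and 288) were left out, and 60 barcodes occurred in both libraries. Levels are counts per 1000000 UMIs of the class (CPM).

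Schlafen proteins form a family found in mammals whose first members were named for their effect on thymocyte growth. Many of the genes are induced by type I interferon, the cytokine family that sets off antiviral gene programmes. Mouse Slfn1 restrains the growth of thymocytes, Slfn2 is needed for T cells to remain quiescent and for monocytes and T cells to survive activation, and Slfn4 is a gene of myeloid cells. Slfn5 and Slfn8 encode long members with a helicase-like part that the short members Slfn1 and Slfn2 lack.

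The 5 genes lie in one stretch of chromosome 11 of build GRCm38, between positions 82951349 and 83190216. In that stretch of 239 kb the GENCODE annotation has 6 protein-coding genes, the members and Slfn9. Slfn5 (ENSMUSG00000054404, positions 82951349 to 82964840), Slfn2 (ENSMUSG00000072620, 83065112 to 83070678), Slfn1 (ENSMUSG00000078763, 83116849 to 83122670) and Slfn4 (ENSMUSG00000000204, 83175186 to 83190216) are on the plus strand. Slfn8 (ENSMUSG00000035208, 83002158 to 83020810) is on the minus strand. Near-identical copies can share reads. Of the 50-base stretches in its annotated transcripts, Slfn8 shared 9.3% with Slfn9, Slfn4 shared 6.28% with Slfn3, Slfn2 shared 4.27% with Slfn4, Slfn1 shared 0.606% with Slfn4 and Slfn5 shared 0% with other Schlafen genes, so the counts of Slfn8 and Slfn4 are the most uncertain in this respect. Slfn5os overlaps Slfn5 on the other strand and had 0 UMIs in PyMT-N and 1 in PyMT-M monocytes and macrophages.

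The sequences before the start sites are shown because neighbouring members differed in opposite directions between the tumours. They are RefSeq start sites of build GRCm38.p6, found for all 5 members, read 5′ to 3′ on the strand of the gene. Capitals mark matches, on either strand, to the interferon-stimulated response element (GAAA, any 2 bases, GAAA), to the composite site of ETS and IRF factors (GGAA, any 2 bases, GAAA), and to the ETS site CAGGAAGT, whose reverse is ACTTCCTG. The first line is the whole 250 bases before the Slfn4 start and the others are windows around the matches. The motifs were chosen after the sequences had been seen.
Slfn4, chr11:83174936-83175185, plus strand: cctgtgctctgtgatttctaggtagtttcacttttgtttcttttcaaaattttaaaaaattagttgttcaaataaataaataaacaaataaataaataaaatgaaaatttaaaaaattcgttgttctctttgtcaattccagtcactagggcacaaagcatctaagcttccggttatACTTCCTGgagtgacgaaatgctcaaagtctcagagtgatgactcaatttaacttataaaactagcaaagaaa
Slfn1, chr11:83116726-83116773, plus strand: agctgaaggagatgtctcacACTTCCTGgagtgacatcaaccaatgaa
Slfn2, chr11:83065033-83065084, plus strand: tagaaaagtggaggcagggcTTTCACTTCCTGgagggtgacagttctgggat
Slfn5, chr11:82951927-82951976, plus strand: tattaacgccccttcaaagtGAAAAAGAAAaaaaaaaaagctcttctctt
Slfn8, chr11:83020829-83020878, minus strand: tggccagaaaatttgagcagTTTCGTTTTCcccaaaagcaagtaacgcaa

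The 250 bases before Slfn5 and before Slfn8 each held 1 match to the response element, which 2.98% of 32851 promoter windows of that length held. Those before Slfn1, Slfn2 and Slfn4 held no match to it. Slfn2 held the composite site (2.3% of windows), which overlaps its ETS site, and Slfn1, Slfn2 and Slfn4 each held CAGGAAGT (2.69% of windows). A window of Slfn1 and one of Slfn4 shared the 15 bases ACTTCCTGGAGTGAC, beginning 74 and 73 bases before the start, a stretch found in 0.00609% of windows. It was picked as the longest stretch that these windows share, and they are themselves counted in that percentage. Nothing is therefore read from its rarity. A match is a description of the letters and not a bound site.

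Slfn4 was detected in myeloid cells only among the classes examined. In neutrophils it was at 354 CPM in PyMT-N (340 to 369, 2216 UMIs), with 392 CPM in PyMT-M (256 to 574, 26 UMIs), so the tumours overlapped there. It was at 37.5 CPM in PyMT-N monocytes (27.1 to 50.4) and 13.2 CPM in PyMT-M monocytes (6.31 to 24.2). Intermediate cells held 53.0 CPM in PyMT-N (40.5 to 68.0), with 15.3 CPM in PyMT-M (10.5 to 21.6). Macrophages held 4.7 CPM in PyMT-N (2.43 to 8.21), with 1.46 CPM in PyMT-M (1.03 to 2.01). In both tumours neutrophils were highest and macrophages lowest among these 4 classes, and the intervals of monocytes and intermediate cells overlapped. T cells, NK cells, B cells and dendritic cells held 0 Slfn4 UMIs in either tumour. For T cells a count of 0 allows up to 1.79% of 168 cells in PyMT-N and 0.472% of 636 cells in PyMT-M to carry a UMI, and the other classes with 0 had fewer cells.

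The number of cells with Slfn4 gave the same order. A UMI of Slfn4 was found in 30.3% of PyMT-N neutrophils and 42.9% of PyMT-M neutrophils, at median depths of 1695 and 1599 UMIs. Among monocytes the shares were 15.7% in PyMT-N and 5.83% in PyMT-M, and among intermediate cells 21.1% and 9.54%. Median depths were 5526 and 5861 UMIs in monocytes and 6406 and 8127 in intermediate cells, against 3062.5 and 4316 in T cells and 3742 and 6363.5 in NK cells, which held no UMI of the gene. With each cell thinned to 1000 UMIs, 8 of 196 PyMT-N monocytes (4.08%, 1.78 to 7.88%) and 1 of 120 PyMT-M monocytes (0.833%, 0.0211 to 4.56%) kept a UMI, a number too small to order them. No single cell carried the signal, since the 116 UMIs of PyMT-N monocytes and macrophages came from 77 cells with at most 5 each, and the 79 UMIs of PyMT-M from 63 cells with at most 4.

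Slfn1 was detected in neutrophils, monocytes and T cells but hardly in NK or B cells. Its level in neutrophils was 300.1 CPM in PyMT-N (287 to 314), with 784 CPM in PyMT-M (585 to 1028). Monocytes held 118 and 90.8 CPM and intermediate cells 92.1 and 105 CPM, against 6.66 CPM in PyMT-N macrophages and 16.9 CPM in PyMT-M macrophages. T cells held 45.5 CPM in PyMT-N (30.7 to 65.0), with 102 CPM in PyMT-M (91.8 to 114). The NK cells of PyMT-M, sequenced more deeply than its T cells, held only 4 UMIs in 382 cells (1.56 CPM, 0.425 to 3.99), and the 32 NK cells of PyMT-N held 1. B cells held 0 UMIs in both tumours, which allows up to 29.0 CPM in PyMT-N, with 32.6 CPM in PyMT-M.

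Slfn2 was the member found in every class of both tumours. The highest levels were in PyMT-M neutrophils at 558 CPM (393 to 769) and PyMT-M monocytes at 325 CPM (286 to 368). PyMT-N neutrophils held 221 CPM (210 to 233) and PyMT-N monocytes 203 CPM (178 to 231). B cells held 241 CPM in PyMT-N (156 to 356), with 250.1 CPM in PyMT-M (159 to 375), whose intervals overlap widely. T cells held 111 and 214 CPM, NK cells 48.5 and 115 CPM, dendritic cells 124 and 143 CPM, and macrophages 77.9 and 142 CPM. The lowest value was thus in NK cells of PyMT-N, on 8 UMIs.

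Slfn5 was found in myeloid classes and was low as a class average in T and NK cells. Monocytes held 118 CPM in PyMT-N (98.6 to 139), with 150.1 CPM in PyMT-M (124 to 180), and intermediate cells held 121 and 115 CPM. Dendritic cells held 101 CPM in PyMT-N (53.5 to 172), on 13 UMIs, and 73.9 CPM in PyMT-M. Macrophages were lower, at 28.6 CPM in PyMT-N (22.4 to 35.9), with 53.9 CPM in PyMT-M (51.0 to 56.8), and T cells lower still at 13.7 and 15.4 CPM, with NK cells at 0 and 5.07 CPM. Neutrophils held 53.2 CPM in PyMT-N, with 121 CPM in PyMT-M (52.1 to 238), on 8 UMIs.

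Slfn8 was low throughout. In PyMT-M monocytes, intermediate cells, macrophages and T cells held 35.5, 33.5, 34.9 and 33.1 CPM with overlapping intervals, while NK cells (24.2 CPM, 18.5 to 31.0) and dendritic cells (4.62 CPM, 0.559 to 16.7) lay below macrophages (32.6 to 37.3). In PyMT-N the first 4 of these classes held 27.9, 25.2, 10.2 and 21.3 CPM, with macrophages lowest (6.65 to 14.9). Neutrophils held 16.9 CPM in PyMT-N (13.9 to 20.5), with 60.3 CPM in PyMT-M on 4 UMIs. Of the other Schlafen genes in the tables, Slfn9 was at 8.22 CPM in PyMT-N macrophages and 12.7 CPM in PyMT-M macrophages, and Slfn3 at 1.96 and 1.42 CPM. Slfn14 had 0 UMIs in all classes, and Slfnl1 had 1, in a PyMT-N neutrophil.

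**Figure D1:**
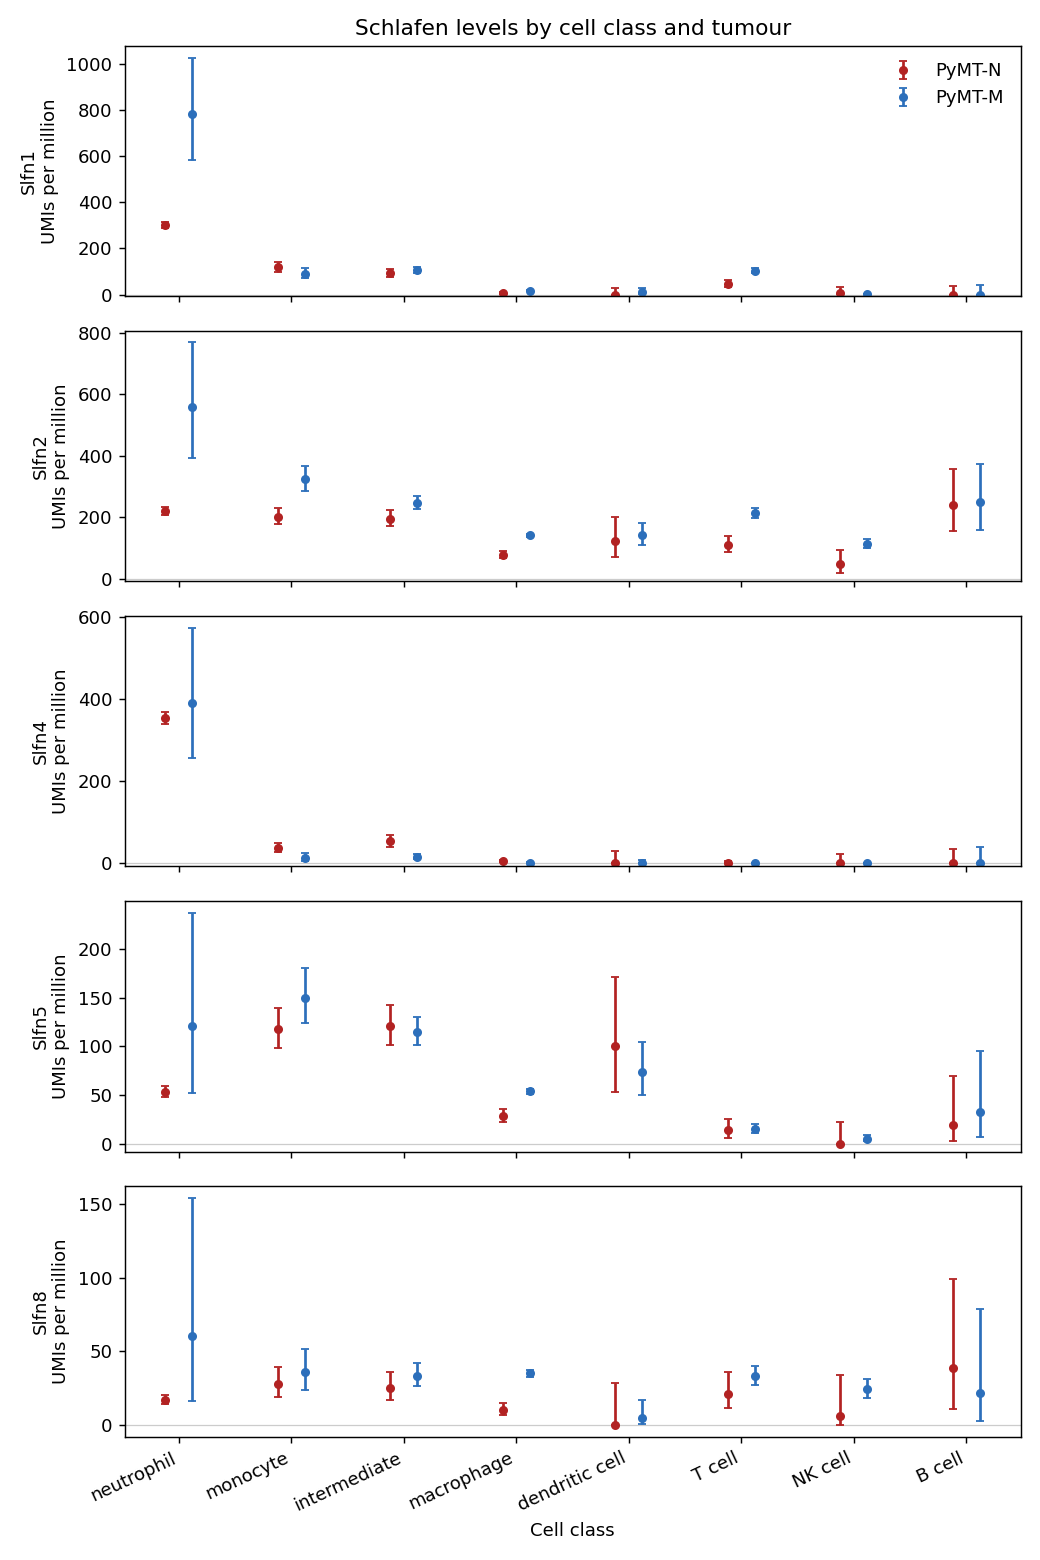
Level of each Schlafen gene (CPM, linear axis) by cell class, with PyMT-N in red left of PyMT-M in blue. Points are pooled levels of 1 library and bars are exact Poisson intervals. Slfn4 is at 0 in dendritic, T, NK and B cells of both tumours, and is higher in PyMT-N in monocytes, intermediate cells and macrophages.

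The comparison of the tumours in monocytes and macrophages is the one for which the family was chosen. Over the 3 classes together Slfn4 was at 23.9 CPM in PyMT-N (19.7 to 28.7), with 2.8 CPM in PyMT-M (2.22 to 3.49), an 8.54-fold difference (6.36 to 11.5). The log2 ratio of PyMT-N over PyMT-M with 1 CPM added was 2.71, and 23 of the 11696 genes with at least 20 UMIs had a larger one. Slfn1 was at 53.4 and 25.4 CPM (log2 ratio 1.04), Slfn5 at 71.5 and 61.0 CPM (0.23), and Slfn8 at 17.9 and 34.8 CPM (-0.92). Slfn2 was at 135 and 155 CPM, a log2 ratio of -0.19 that turned to 0.023 with median-ratio scaling. Thus 2 of 5 members had a ratio of 2-fold or more, as 3.84% of all genes had, and 0 of 5 were 2-fold or more lower, as 8.55% were. The rule used this contrast, so nothing is read from the count for Slfn4.

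The mix of cells moved with that difference. Of the monocyte and macrophage UMIs, macrophages gave 52.6% in PyMT-N and 89.9% in PyMT-M, and monocytes 23.7% and 2.69%. Given the PyMT-M mix, PyMT-N cells would hold 9.16 CPM of Slfn4 against 2.8 CPM in PyMT-M, a log2 ratio of 1.42. The other members changed sides or moved down under that mix, to -0.64 for Slfn1, -0.77 for Slfn2, -0.68 for Slfn5 and -1.49 for Slfn8.

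Within each class Slfn4 was still higher in PyMT-N. The difference was 2.84-fold in monocytes (1.41 to 6.35), 3.46-fold in intermediate cells (2.22 to 5.49) and 3.22-fold in macrophages (1.53 to 6.31), with log2 ratios of 1.44, 1.73 and 1.21. These intervals overlap, and the difference between classes was not tested. Against the rest of their library, the leading genes of intermediate cells were Ccl7, Ccl8 and Cbr2 in PyMT-N, and Plac8, F13a1 and Ccl6 in PyMT-M. Whether intermediate cells are alike in the tumours was not tested. In monocytes 1 of 5 members was at least 2-fold higher (3.17% of all genes) and 0 were 2-fold lower (5.59%). In intermediate cells 1 of 5 was 2-fold higher (2.04%) and 0 were 2-fold lower (6%). In macrophages 1 of 5 was 2-fold higher (3.9%) and 2 of 5, Slfn1 and Slfn8, were 2-fold lower (9.95%). The higher member was Slfn4 in each class, for which the family was chosen, so nothing is read from these counts of higher members.

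The other members were lower in PyMT-N macrophages. Slfn8 had a log2 ratio of -1.68 (-2.40 to -1.22), Slfn1 -1.22 (-2.14 to -0.65), Slfn5 -0.89 (-1.27 to -0.57) and Slfn2 -0.86 (-1.08 to -0.66). When classes were taken from clusters, which had no intermediate class, Slfn1 turned to 0.37, Slfn5 was at -0.24 and Slfn2 at -0.38. In monocytes Slfn2 was lower in PyMT-N at -0.68 (-0.94 to -0.42), while Slfn1 (0.38), Slfn5 (-0.35) and Slfn8 (-0.34) had intervals that include 0. In intermediate cells Slfn2 was at -0.34 (-0.57 to -0.11), and Slfn1 (-0.19), Slfn5 (0.07) and Slfn8 (-0.40) had intervals that include 0.

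Genes of the type I interferon response, listed without Schlafen members, were mostly lower in PyMT-N. Over monocytes and macrophages 19 of 39 measured members were at least 2-fold lower and 1 was at least 2-fold higher, with a median log2 ratio of -0.96 against -0.20 for all genes. That one gene was Ifi27l2a, an interferon-induced gene of the mitochondrial membrane, at 3369 CPM in PyMT-N, with 1628 CPM in PyMT-M. Bst2, which tethers enveloped viruses to the cell, was at 344 and 1074 CPM, and Ifit3, which encodes an antiviral protein that binds its relative Ifit1, at 33.0 and 146 CPM. In macrophages 35 of 39 were at least 2-fold lower, 0 were 2-fold higher and the median was -2.04, with Ifit1 at 2.35 and 56.7 CPM. In monocytes 9 of 36 were 2-fold lower (5.59% of all genes were) with a median of -0.47, and in intermediate cells 3 of 39, a share near the 6% of all genes, with a median of -0.49. In both classes 0 members were 2-fold higher. Ifi27l2a had log2 ratios of 0.51 in monocytes, 0.11 in intermediate cells and 0.18 in macrophages, so that Slfn4 had the larger ratio in each class. Among interferon-gamma genes 6 of 16 were 2-fold lower and 0 higher over the 3 classes, led by the chemokine gene Cxcl9 at 8.24 CPM in PyMT-N, with 69.5 CPM in PyMT-M.

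**Figure D2:**
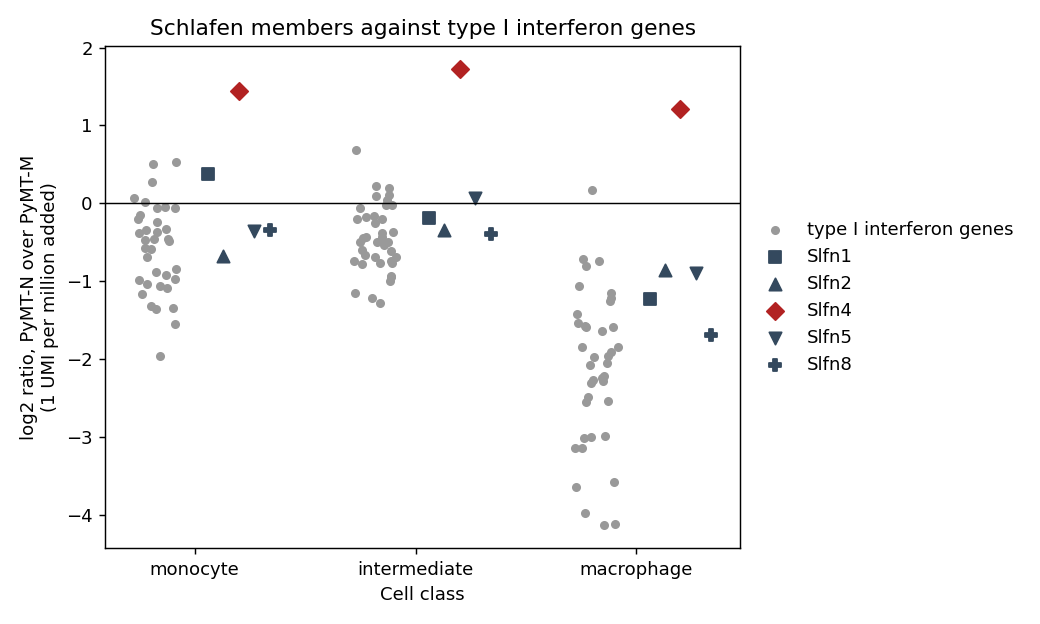
Log2 ratio of PyMT-N over PyMT-M (1 CPM added) in monocytes, intermediate cells and macrophages. Grey points are type I interferon genes with at least 20 UMIs and symbols are the Schlafen genes, with Slfn4 in red. Slfn4 lies at 1.44, 1.73 and 1.21, above each grey point of its class.

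RNA of neutrophil marker genes was higher in PyMT-N monocytes and macrophages than in those of PyMT-M. The markers S100a8 and S100a9 together were at 181 CPM in monocytes, 33.9 in intermediate cells and 45.0 in macrophages of PyMT-N. In PyMT-M they were at 1.32, 0.478 and 0.867 CPM. A single PyMT-N monocyte held 68 of the 158 S100a8 UMIs of its class. The 10 neutrophil markers summed to 355, 109 and 167 CPM in these PyMT-N classes and to 94.8, 64.5 and 71.3 CPM in those of PyMT-M. All 10 markers had UMIs in each PyMT-N class and in PyMT-M macrophages, whereas S100a9, Cxcr2 and Retnlg were at 0 in PyMT-M monocytes and S100a8, Cxcr2 and Retnlg in its intermediate cells. In PyMT-N neutrophils 2216 Slfn4 UMIs stood beside 564595 of S100a8 and S100a9. At that ratio the 362 S100a8 and S100a9 UMIs of PyMT-N monocytes and macrophages would bring 1.42 Slfn4 UMIs, while 116 were counted. Whether the marker RNA came from neutrophils, and whether neutrophil RNA reaches other cells at that ratio, was not tested. Cells with no S100a8 or S100a9 UMI held 92 of the 116 at 23.7 CPM, against 2.81 CPM in such PyMT-M cells, a log2 ratio of 2.70. S100a8 or S100a9 was found in 20.8% of PyMT-N cells with Slfn4 and 18.6% of those without.

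Each member was higher in PyMT-N neutrophils with more interferon RNA. These neutrophils were divided by the UMIs of the type I list in 1000 UMIs of a cell, into 843 cells with 0, 1532 with 1 to 4, 332 with 5 to 9 and 252 with 10 or more. Slfn4 was at 133, 222, 631 and 1366 CPM over these ranges, 10.3-fold higher at the top than at the bottom (8.82 to 12.1). Slfn1 was at 173, 240.5, 488 and 777 CPM (4.5-fold) and Slfn2 at 139, 195, 294 and 521 CPM (3.75-fold). Slfn5, at 15.2, 33.8, 75.4 and 239 CPM, and Slfn8, at 4.44, 12.2, 25.9 and 69.6 CPM, were each 15.7-fold higher at the top (10.1 to 25.4 and 6.9 to 41.7). All 5 were higher at each step.

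Over monocytes and macrophages the same ranges held 136, 398, 179 and 145 PyMT-N cells and 430, 2317, 1264 and 850 PyMT-M cells. Slfn4 was at 0, 8.93, 24.9 and 84.3 CPM in PyMT-N, against 0.834, 0.912, 2.55 and 9.11 CPM in PyMT-M. In the 3 ranges above 0 the tumours thus differed 9.79-fold (4.56 to 22.0), 9.75-fold (5.19 to 18.6) and 9.24-fold (6.28 to 13.7) at a like number of interferon UMIs. Slfn1 was also higher in PyMT-N in these ranges, by 2.15-fold (1.41 to 3.21), 2.6-fold (1.96 to 3.43) and 2.16-fold (1.78 to 2.61). The cell mix was not held constant in these values. Ifi27l2a gave 65.3% of the list's UMIs in PyMT-N cells and 28.1% in PyMT-M cells. Ranges were also set without that gene, a choice made after the data were seen. Slfn4 then differed 13.3-fold (8.30 to 22.0), 37.2-fold (17.9 to 80.5) and 15.5-fold (8.44 to 27.9), the last on 20 PyMT-N cells. The cell mix was not held constant there either. At 1 to 4 such UMIs within a class, Slfn4 differed 5.31-fold in monocytes (1.65 to 27.3) and 4.28-fold in macrophages (1.36 to 11.7). In intermediate cells it differed 6.02-fold at 1 to 4 (2.65 to 15.4) and 5.97-fold at 5 to 9 (2.19 to 18.8). With the whole list, Slfn2 at 10 or more UMIs was at 262 CPM in PyMT-N, with 258 CPM in PyMT-M. Slfn5 was at 211 and 162 CPM in these cells, and Slfn8 was lower in PyMT-N, at 43.3 and 77.3 CPM. Without Ifi27l2a, Slfn8 was at 126 and 103 CPM at 10 or more UMIs, with an interval that includes no difference (0.678- to 2.05-fold). There Slfn2 was at 303 and 297 CPM and Slfn5 at 522 and 200 CPM (2.61-fold, 1.98 to 3.39).

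Within one class at 10 or more interferon UMIs, Slfn4 was at 111 CPM in 60 PyMT-N intermediate cells and 24.4 CPM in 99 PyMT-M intermediate cells, a 4.54-fold difference (2.64 to 8.06). In monocytes it was at 69.6 CPM (65 cells) and 33.6 CPM (33 cells), with an interval that includes no difference (0.871- to 5.67-fold). In macrophages with 1 to 4 interferon UMIs it was at 4.57 CPM (298 cells) and 0.726 CPM (2222 cells), a 6.28-fold difference (1.99 to 19.0), on 7 and 9 UMIs. With 10 or more the 2 PyMT-N and 18 PyMT-M UMIs of macrophages gave an interval that includes no difference (0.592- to 22.0-fold). The same held for intermediate cells with 1 to 4 (0.985- to 22.7-fold) and 5 to 9 (0.769- to 6.69-fold), and for monocytes with 5 to 9 (0.767- to 14.9-fold). Monocytes with 1 to 4 held only 4 Slfn4 UMIs in PyMT-N and 0 in PyMT-M. Macrophages with 5 to 9 differed 8.85-fold (1.51 to 36.9), on 3 and 8 UMIs. For the other members at 10 or more, intermediate cells differed by less than their counting error, with Slfn1 at 173 and 167 CPM and Slfn2 at 268 and 296 CPM. Monocytes of that range held less Slfn2 in PyMT-N, at 273 and 528 CPM (0.517-fold, 0.390 to 0.685), and less Slfn5, at 198 and 312 CPM (0.634-fold, 0.446 to 0.901). Slfn2 had no order over the ranges in PyMT-N monocytes, with 279.9 CPM in the 4 cells with 0, then 168, 167 and 273 CPM.

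**Figure D3:**
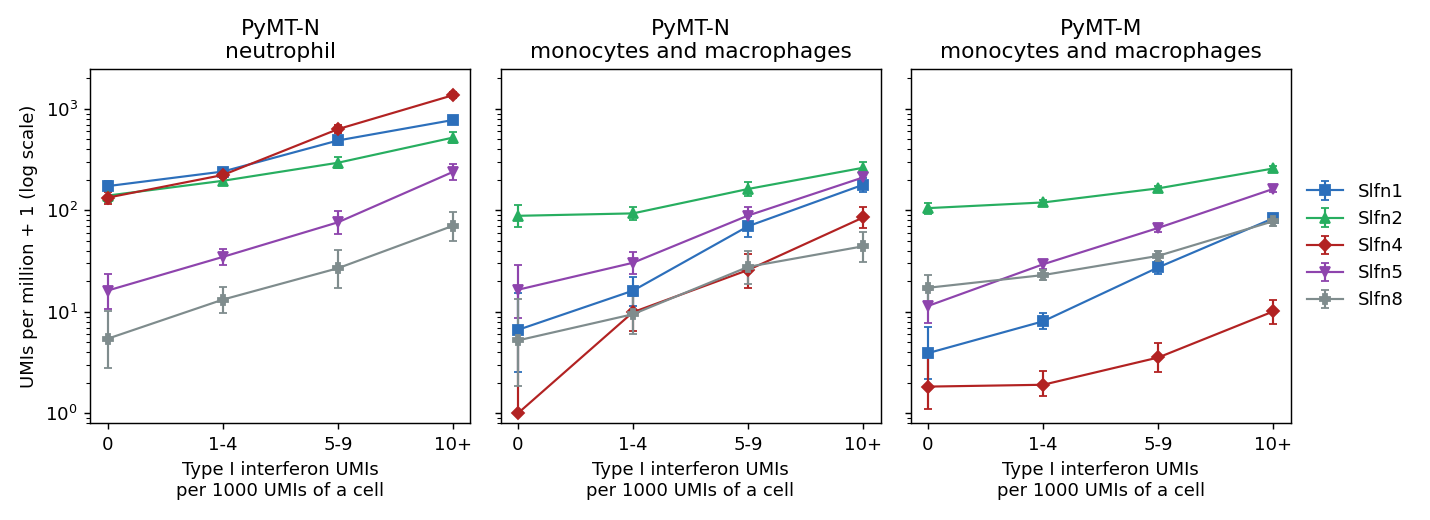
Level of each Schlafen gene (CPM plus 1, log axis) in cells grouped by type I interferon UMIs per 1000 UMIs of the cell, for PyMT-N neutrophils, PyMT-N monocytes and macrophages, and PyMT-M monocytes and macrophages. Bars are exact Poisson intervals. Slfn4 in red reaches 1366, 84.3 and 9.11 CPM in the top group.

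Neutrophil states other than the interferon response also differed in Slfn4. Granule genes of immature neutrophils (Ngp, Camp, Ltf, Lcn2, Cebpe and Mmp8) had 10 or more UMIs per 1000 in 89 PyMT-N neutrophils and 0 in 1908. Slfn4 was at 724 CPM in the first and 261 CPM in the second, a 2.77-fold difference (2.40 to 3.19), whereas Slfn5 was at 40.5 and 49.1 CPM. Slfn1 was at 333 and 258 CPM and Slfn2 at 234 and 194 CPM. The direction was opposite for genes of tumour neutrophils (Siglecf, Hilpda, Vegfa, Ccl3, Ccl4 and Cstb). In the 503 cells with 10 or more of their UMIs Slfn4 was at 293 CPM and in the 775 cells with 0 at 453 CPM (0.646-fold, 0.564 to 0.740), and Slfn1 was at 221 and 416 CPM. Slfn2, Slfn5 and Slfn8 had intervals that include no difference between these cells. Interferon UMIs were not held constant here.

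Neutrophils of the tumours themselves were compared on only 42 PyMT-M cells with 66331 UMIs. There 4 of 5 members were lower in PyMT-N by 2-fold or more, as 15% of all genes were, and 0 were 2-fold higher, as 37% were. Slfn1 had a log2 ratio of -1.38 (-1.78 to -0.96) and Slfn2 one of -1.33 (-1.81 to -0.82). The intervals of Slfn5 (-1.17), Slfn8 (-1.77) and Slfn4 (-0.15) include 0. Of the type I list, 19 of 35 measured genes were 2-fold lower and 0 higher, with a median of -1.30 against 0.27 for all genes. At this depth 1 PyMT-M UMI is 15.1 CPM, and a gene at 0 there can count as 2-fold higher in PyMT-N. Gbp7 did so with 109 PyMT-N UMIs, though its interval includes 0. The 37% and the median of all genes include such genes, so they are not an even background for the members or the list.

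T cells carried Slfn1 and Slfn2 at lower levels in the PyMT-N tumour. The log2 ratios were -1.15 for Slfn1 (-1.76 to -0.63) and -0.95 for Slfn2 (-1.32 to -0.60). Of the 4 members with enough UMIs, 1 was at least 2-fold lower (9.8% of all genes) and 0 were 2-fold higher (4.39%). The type I list moved with them, with 28 of 35 genes 2-fold lower and a median of -1.62. At 1 to 4 interferon UMIs Slfn1 was at 39.5 CPM in 85 PyMT-N T cells and 50.7 CPM in 288 PyMT-M T cells, and Slfn2 at 109 and 159 CPM. The interval of the Slfn1 ratio there includes no difference (0.398- to 1.41-fold) and that of Slfn2 ends just below it (0.470- to 0.976-fold).

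The smaller lymphoid and dendritic classes had few members with 20 UMIs. In NK cells 2 of 2 were 2-fold lower in PyMT-N (20.7% of all genes) and 0 were 2-fold higher (6.26%). These were Slfn2, at -1.22 (-2.47 to -0.24), and Slfn8, at -1.83 on 1 PyMT-N UMI with an interval that includes 0. In B cells 0 of 1 was 2-fold higher (7.11%) or lower (9.23%), and in dendritic cells 0 of 2 were 2-fold higher (4.83%) or lower (12%).

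Slfn1 and Slfn2 made up a smaller share of the UMIs in dividing T cells. In PyMT-N only 18 T cells had 3 or more UMIs of cell cycle genes in 1000, with 0 Slfn1 UMIs and 8 of Slfn2 (50.5 CPM), against 71.5 and 126 CPM in 130 cells with 0. In PyMT-M 50 such T cells held Slfn1 at 44.7 CPM and Slfn2 at 123 CPM, against 114 and 238 CPM in 529 cells with 0. The PyMT-M folds were 0.393 for Slfn1 (0.236 to 0.619) and 0.516 for Slfn2 (0.384 to 0.681). These are folds of CPM. UMIs per cell were not compared, and a smaller share need not mean fewer UMIs in a cell. Genes of activated T cells, such as Pdcd1 and Ctla4, gave no like order in the tumours. Slfn1 was at 11.1 CPM in 30 PyMT-N cells with 3 or more of their UMIs and 50.3 CPM in 92 with 0, a fold whose interval includes no difference (0.00534 to 1.36). It was at 253 CPM in 35 PyMT-M cells with 3 or more and 88.5 CPM in 384 with 0 (2.85-fold, 1.86 to 4.23). Slfn2 was at 66.5 and 117 CPM in these PyMT-N cells, and at 339.7 and 197 CPM in those of PyMT-M. Interferon UMIs were not held constant in these T cell comparisons. Slfn1 was 17.6-fold higher in PyMT-N T cells with 10 or more interferon UMIs than in those with 0 (3.52 to 170). In PyMT-M that difference was 13.1-fold (6.23 to 33.0).

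**Figure D4:**
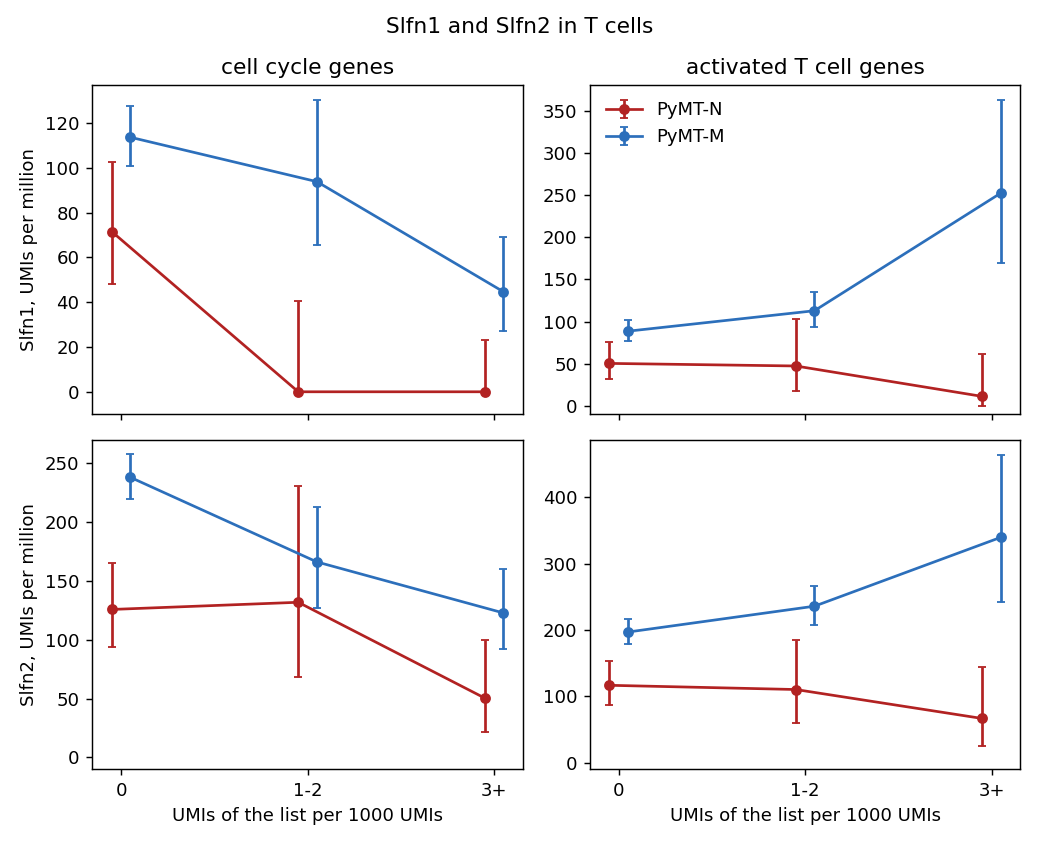
Slfn1 (top) and Slfn2 (bottom) in T cells, in CPM, by the UMIs of cell cycle genes (left) and activated T cell genes (right) per 1000 UMIs of the cell, with PyMT-N in red and PyMT-M in blue. Bars are exact Poisson intervals. With 3 or more cell cycle UMIs both genes are a smaller share of UMIs than with 0, and Slfn1 is at 0 in 18 PyMT-N cells. Slfn1 reaches 253 CPM with 3 or more activated UMIs in PyMT-M.

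The relation to division was not shared by all classes or members. In PyMT-M macrophages with 3 or more cell cycle UMIs (154 cells), Slfn2 was at 134 CPM, against 143 CPM in 4093 cells with 0. In these cells Slfn1 was at 7.41 and 17.8 CPM and Slfn5 at 29.6 and 56.2 CPM (0.527-fold, 0.359 to 0.748). In NK cells of PyMT-M Slfn2 was at 101 CPM in 45 dividing cells and 122 CPM in 306 cells with 0, a difference within counting error. Interferon UMIs were not held constant in these comparisons either. PyMT-N macrophages with 3 or more UMIs of Ctsk, Mmp12, Mmp13 and Fabp5 (84 cells) held Slfn4 at 6.98 CPM on 3 UMIs, against 4.05 CPM on 6 UMIs in 292 cells without them (1.73-fold, 0.279 to 8.08). Slfn1 had 0 UMIs in the first and 10.8 CPM in the second.

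Across the 12 class and tumour points with at least 50 cells, the genes with the pattern most like Slfn4 were genes of neutrophils and other myeloid cells. By Pearson correlation of log2(CPM + 1) among 10006 genes they were Sgms2, a sphingomyelin synthase (0.989), the myeloid receptor gene Tarm1 (0.985), Trem3 (0.975), Lrg1, which encodes a secreted glycoprotein (0.972), and Clec4e, which encodes the receptor Mincle (0.964). None of them is on the interferon list. For Slfn8 the nearest were Nprl2 (0.921), the RNA sensor gene Ddx58 (0.902) and Ppp2r5b (0.888), and for Slfn2 Trim30a (0.894), Adgre5 (0.866) and Babam2 (0.862). Slfn1 was most like Ubxn4 (0.872), Hif1a (0.871) and Oas3 (0.870), and Slfn5 most like Gpx1 (0.955), Mia2 (0.945) and Gm36161 (0.942). Among the members the highest value was that of Slfn1 and Slfn4 (0.687), and Slfn8 was near 0 with Slfn4 (0.069) and Slfn5 (-0.007). The only neutrophil point was that of PyMT-N, with Slfn4 at 354 CPM, against 53.0 CPM or less at each other point. Points of one library share its depth, so these values describe the 12 points only.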

How the data were processed

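The 2 droplet libraries, read from the 5′ end, were deposited as raw UMI counts per gene and barcode. Build mm10, Seurat and Cell Ranger are named in the submitters' processing notes, and software version 3.1.0 per the file headers. Deposited depth was 14907736 UMIs in 5020 barcodes (PyMT-N, median 1955) and 43977988 in 7476 (PyMT-M, median 5069.5). Members and lists were chosen with earlier results of these data known, and the thresholds of the marker rule after seeing the cells.

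Barcodes under 200 genes or over 10% mitochondrial UMIs were dropped (26 in PyMT-N, 119 in PyMT-M). Scrublet (scanpy 1.11.5, anndata 0.12.19) marked 0 doublets by its own threshold, so the 202 and 447 cells with the highest scores were removed, at 0.8% per 1000 barcodes. A class needed 3 detected markers (neutrophil, macrophage, monocyte, T cell) or 2 (other classes) and at least 30 marker UMIs per 10000 (neutrophil, macrophage) or 5 (other classes). Cells at the smallest number of markers or under 1.25 times the UMI minimum were 213 of 3138 neutrophils, 37 of 198 monocytes, 80 of 166 intermediate cells and 18 of 532 macrophages in PyMT-N, and 0 of 42, 38 of 120, 143 of 241 and 27 of 4729 in PyMT-M. Cells passing for T and NK were T cells. The epithelial, stromal and mast cell classes were not used.

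UMIs were summed per class and library. Levels have exact Poisson, shares Clopper-Pearson and ratios exact conditional binomial intervals at 95%, the last for the ratio without the added 1 CPM. Genes needed 20 UMIs over both tumours, and a count of 0 allows 3 UMIs. Cells were thinned to 1000 UMIs without replacement to set ranges, leaving out 179 PyMT-N neutrophils and fewer in other PyMT-N classes, and 229 PyMT-M macrophages. Within ranges levels use all UMIs. Interferon genes named are the 2 with the highest CPM and the 2 with the largest ratio in a list. Genes most like a member were the 5 (Slfn4) or 3 (others) with the highest correlation among genes with 200 UMIs. One list gene, Mx2, was not analysed here. A few items are not reported here. Positions are from GENCODE M21 by gene identifier and promoters from RefSeq tables. The ratio code was tested on simulated counts. Other tools were scipy 1.17.1, numpy 2.4.6, pandas 2.3.3, igraph 0.11.9, leidenalg 0.10.2 and matplotlib 3.10.9, under Python 3.11.15.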

Additional observations from a re-analysis of the deposited data

Results flagged for a closer look

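Schlafen UMIs were also counted in cells that no class took up and that no comparison used. The 352 unclassed PyMT-N cells held 56 UMIs of Slfn1, 126 of Slfn2, 38 of Slfn4, 33 of Slfn5 and 5 of Slfn8. The 208 unclassed PyMT-M cells held 20 UMIs of Slfn1, 176 of Slfn2, 38 of Slfn5, 10 of Slfn8 and 0 of Slfn4. Each value named except the last lies above the 3 UMIs that a count of 0 allows.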

How the results depend on the processing

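The log2 ratio of Slfn4 over monocytes and macrophages, 2.71, was 1.42 at the PyMT-M cell mix, as that setting gives more weight to macrophages. With classes taken from 19 clusters, where no cluster was named intermediate, the ratio in macrophages was 2.63 against 1.21. Slfn1 in macrophages turned to 0.37 under that setting, and Slfn2 over monocytes and macrophages to 0.023 with median-ratio scaling. Slfn4 was higher in PyMT-N in monocytes, in macrophages and over both under each setting run, which also covered all barcodes, no doublet removal, a doubled marker minimum, cells with no S100a8 or S100a9 UMI, a pseudocount of 0.1 CPM and, added after seeing the data, cells whose barcode was in one library only. Of 232 values of other member results, 222 moved by less than the counting error. In all 6 changed sign, of which 4 belong to ratios whose intervals include 0, among them Slfn1 in monocytes (-0.15 with clusters, 0.38 as reported). No paired analysis was possible because each line has 1 library, and for the same reason no replicate could be left out. The 42 PyMT-M neutrophils, the 32 NK cells and the 22 dendritic cells of PyMT-N limit what their classes can show.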

Other observations

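Cells with markers of several classes, left out of all comparisons, held Slfn4 in both tumours. It was at 218 CPM in 109 PyMT-N cells (151 UMIs, up to 24 in a cell) and 3.98 CPM in 288 PyMT-M cells (9 UMIs). The neutrophil marker S100a8 was at 23695 and 210 CPM in these cells, found in 79.8% and 2.78% of them. The tumours thus differed in the neutrophil markers of these cells, and their Slfn4 levels do not compare like cells. Slfn1 was at 166 and 46.5 CPM in these cells, Slfn2 at 188 and 136 CPM, Slfn5 at 40.4 and 44.3 CPM and Slfn8 at 8.66 and 30.5 CPM.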
